A study of Mus musculus with 14 samples.

Results

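H19, Meg3, Rian, Mirg, Malat1, Neat1 and Gas5 are 7 long noncoding RNAs, 4 of them imprinted, and are described here in resting mouse quadriceps with and without HDAC3. They were taken by symbol from a table of 24354 genes, in which all 7 were found, and 6 of them passed a filter of a mean of 1 FPKM (fragments per kilobase of transcript, scaled to the size of the library) over the libraries. Mirg did not pass. HDAC3 is the histone deacetylase of the NCoR and SMRT corepressor complexes. RNA-seq was made from quadriceps of HDAC3 Knock-out mice (3 libraries) and of HDAC3 Wild-type mice (3 libraries). All were male C57BL/6 mice aged 4 months, kept on normal chow and a light/dark schedule, without further treatment, and sampled at rest at ZT10, which is 10 hours after lights on. The labels name no allele, Cre driver or cell type in which HDAC3 was removed. They do not say that replicates are separate animals, so p-values measure the spread between libraries, which may be technical. Quadriceps is a mixed tissue, and in bulk RNA fewer cells of a type and less RNA per cell cannot be told apart.

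Imprinted genes are expressed mainly from the chromosome of 1 parent. H19, from the maternal copy of its locus, is abundant in embryonic muscle, is the precursor of miR-675 and lies beside the paternally expressed growth factor gene Igf2. Meg3, Rian and Mirg lie in that order on the maternal copy of the Dlk1-Dio3 locus and carry snoRNAs and a large microRNA cluster. Malat1 and Neat1 are nuclear RNAs of neighbouring genes: Malat1 is found in nuclear speckles, and Neat1 is the scaffold of paraspeckles. Gas5 is the spliced host of box C/D snoRNAs, and its mature form is degraded by nonsense-mediated decay.

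The microRNAs are shown because they are the processed products of the imprinted members. RefSeq, on build GRCm38.p6, places 1 microRNA locus inside H19, 2 inside Meg3, 3 inside Rian and 10 inside Mirg. Their seeds (bases 2 to 8) are in capitals below. The products of H19 on chromosome 7 are on the minus strand at chr7:142577112-142577133 and chr7:142577078-142577099.
mmu-miR-675-5p: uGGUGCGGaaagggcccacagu
mmu-miR-675-3p: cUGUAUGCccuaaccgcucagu
On chromosome 12, plus strand, examples are miR-770-5p of Meg3 at chr12:109563710-109563731, miR-370-3p of Rian at chr12:109618305-109618326 and miR-410-3p of Mirg at chr12:109743764-109743784.
mmu-miR-770-5p: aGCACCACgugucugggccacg
mmu-miR-370-3p: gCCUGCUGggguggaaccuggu
mmu-miR-410-3p: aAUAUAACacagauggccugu
The 19 mature microRNAs of Mirg carry 18 seeds. The pair that shares a seed is miR-453 at chr12:109735669-109735692 and miR-496a-5p at chr12:109739132-109739152.
mmu-miR-453: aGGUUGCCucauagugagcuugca
mmu-miR-496a-5p: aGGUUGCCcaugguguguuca
The 2 products of H19 have different seeds, as do the 3 of Meg3 and the 6 of Rian. The table of these libraries holds rows for 1 of the microRNA loci in H19, 1 in Meg3 and 10 in Mirg, for 10 microRNA or snoRNA rows in Rian and for 1 snoRNA row in Gas5, and every such row was listed at 0 in all 6 libraries. Whether these libraries can show RNAs this short was not tested, so the values of 0 do not show that the microRNAs or snoRNAs are absent.

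Promoter windows of 300 bases around a RefSeq start, most of it upstream, were matched for 5 of the 7 members (Meg3, Rian, Mirg, Malat1 and Gas5) in 7 windows. H19 and Neat1 had no entry. The windows shown are those of the member that rose and had an entry, and of the 2 members whose windows hold the cyclic AMP response element, TGACGTCA. Capitals mark TGACGTCA, its half-site TGACG on either strand (written CGTCA on the other), or a MEF2 motif. The Malat1 window is chr19:5802623-5802922 (minus strand), the Meg3 window chr12:109540746-109541045 (plus strand) and the Gas5 window chr1:161034916-161035215 (plus strand).
Malat1: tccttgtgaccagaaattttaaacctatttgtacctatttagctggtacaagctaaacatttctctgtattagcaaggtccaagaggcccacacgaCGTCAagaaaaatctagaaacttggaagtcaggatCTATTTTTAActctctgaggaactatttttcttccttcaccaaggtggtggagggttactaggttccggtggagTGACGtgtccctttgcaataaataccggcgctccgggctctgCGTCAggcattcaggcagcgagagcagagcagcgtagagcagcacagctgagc
Meg3: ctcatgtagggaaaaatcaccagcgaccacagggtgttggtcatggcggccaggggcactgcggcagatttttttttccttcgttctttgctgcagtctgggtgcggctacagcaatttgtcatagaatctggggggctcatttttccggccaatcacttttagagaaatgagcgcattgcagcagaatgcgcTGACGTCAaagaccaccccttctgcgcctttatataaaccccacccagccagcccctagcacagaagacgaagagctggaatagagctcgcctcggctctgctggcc
Gas5: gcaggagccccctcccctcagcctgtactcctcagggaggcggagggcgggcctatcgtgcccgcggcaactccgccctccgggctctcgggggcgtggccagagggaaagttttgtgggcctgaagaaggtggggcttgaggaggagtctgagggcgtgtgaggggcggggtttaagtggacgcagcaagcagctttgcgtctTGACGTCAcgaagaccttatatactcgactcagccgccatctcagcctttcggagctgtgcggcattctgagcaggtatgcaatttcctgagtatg
TGACGTCA was found in 1.79% of all 32851 windows of the same length, and each full element contains the half-site on both strands. The half-site was found in 20.8% of windows and the MEF2 motif in 3.19%. Malat1 held 3 half-sites and 1 MEF2 motif and no full element. The nuclear receptor half-site AGGTCA, found in 16.3% of windows, was in none of the 3 windows shown and in the second Meg3 window. CACGTG, found in 7.15% of windows, was in none of the 7, and TATAAA, found in 13.6%, was in the Meg3 window shown. These are matches of letters and not measurements of binding.

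The targeted gene checked the labels: Hdac3 had 5.51, 6.29 and 8.16 FPKM in knockout replicates 1 to 3, against 33.3, 31.0 and 23.7 FPKM in wild-type replicates 1 to 3. Its log2 change was -1.99 (adjusted p = 0.00632, limma with Benjamini-Hochberg adjustment over the 10501 genes fitted). Relative depth, read from the steps between low FPKM values, was 0.660 to 0.832 times that of wild-type replicate 1 in knockout libraries and 0.831 to 1.02 times in wild-type libraries. Wild-type replicate 2 stood apart in neutrophil markers, whose summed level was 556 FPKM there, against 3.49 to 7.64 FPKM in knockout libraries and 5.52 and 10.1 FPKM in the other wild-type libraries. Muscle fibre markers summed to between 55223 and 66605 FPKM in knockout libraries and between 56772 and 67841 FPKM in wild-type libraries. No marker of any list was at 0 in all 6 libraries.

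Without HDAC3, H19 and Malat1 rose, Neat1 and Gas5 did not pass the test, and Meg3 and Rian were lower in every knockout library than in any wild-type library without passing it. Mirg was listed at 0 in knockout muscle. By limma, 2 of the 6 fitted members rose and 0 fell, where 2.3% of all fitted genes rose and 1.34% fell. At an unadjusted p under 0.05, 4 of the 6 members passed, where 19.7% of all fitted genes did. By the q-value of the authors' deposited table, 2 rose and 1, Rian, fell, where 5.17% of the fitted genes were higher and 4.33% lower. Knockout and wild-type libraries did not overlap in 4 of the 6 members, 2 higher and 2 lower, and 14.2% of all fitted genes were higher in this way and 11.9% lower. The members' median log2 change was 0.02, against 0.00 over all fitted genes. The members were chosen with earlier results of these data known, so these counts are no test of an excess among them.

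**Figure D1:**
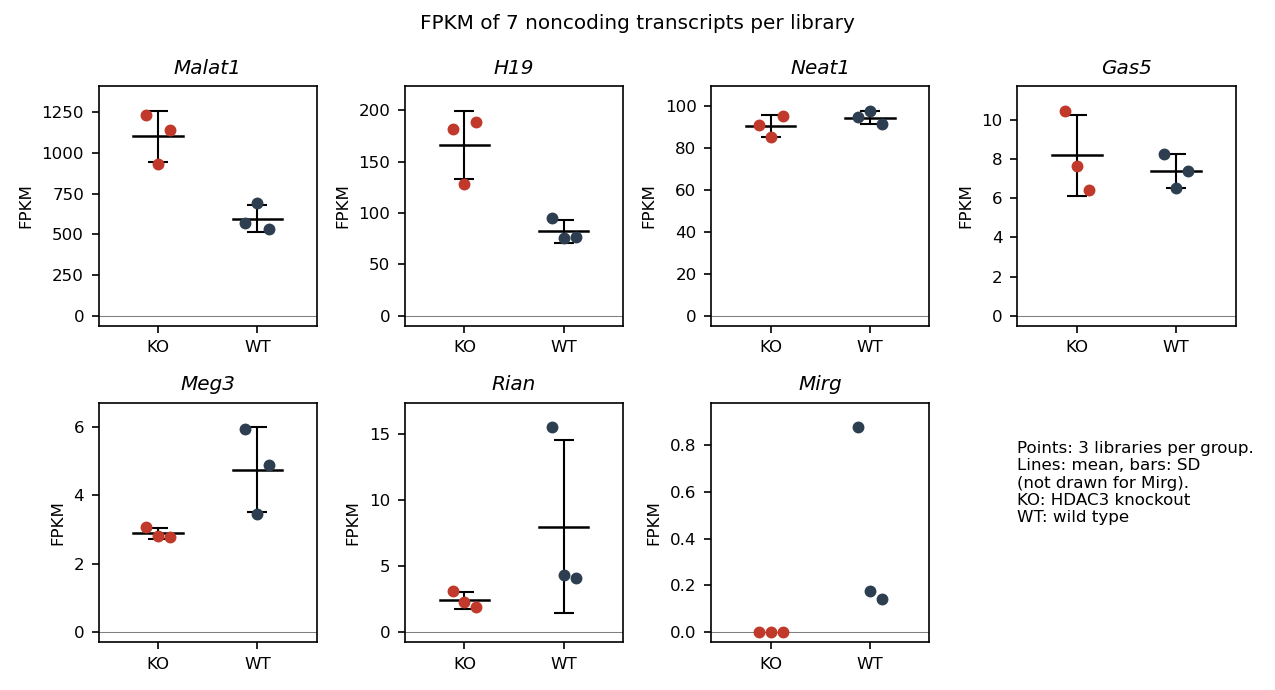
FPKM of each of the 7 transcripts (vertical axis, linear, with a line at 0) in the 3 knockout (KO) and 3 wild-type (WT) libraries; points are libraries, lines and bars the mean and SD, not drawn for Mirg. Malat1 and H19 are higher in all knockout libraries, Neat1 and Gas5 overlap, and Meg3, Rian and Mirg are lower in all knockout libraries, with 1 high wild-type library for Rian and Mirg.

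On the FPKM scale, which is per length, the members ranged from very abundant to barely detected. In knockout muscle the order was Malat1, H19, Neat1, Gas5, Meg3, Rian and Mirg, at ranks 54, 387, 657, 4610, 7710 and 8218 of the 24354 genes for the first 6. In wild-type muscle the order was Malat1, Neat1, H19, Rian, Gas5, Meg3 and Mirg, with ranks 94, 589, 670, 4671, 4906 and 6328 for the first 6. Wild-type levels of Neat1 (91.4 to 98.0 FPKM) and H19 (75.3 to 94.9 FPKM) overlapped, as did those of Gas5 (6.53 to 8.28 FPKM) with Rian (4.07 to 15.5 FPKM), and those of Rian with Meg3 (3.45 to 5.92 FPKM). The place of Rian above Gas5 rested on wild-type replicate 1: without it Rian averaged 4.19 FPKM in wild-type muscle (rank 6700), below Gas5 at 6.96 FPKM (rank 5112) and close to Meg3 at 4.16 FPKM (rank 6712). Meg3 and Gas5 did not overlap in wild-type muscle. In knockout muscle Meg3 (2.78 to 3.07 FPKM) and Rian (1.89 to 3.14 FPKM) overlapped, and the other neighbours in the order did not.

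H19 had 182, 128 and 189 FPKM in knockout replicates 1, 2 and 3, against 94.9, 75.3 and 76.4 FPKM in wild-type replicates 1, 2 and 3. Every knockout library was above every wild-type library, with knockout replicate 2 the lowest of its group. H19 averaged 166 ± 33.3 FPKM in knockout muscle and 82.2 ± 11.02 FPKM in wild-type muscle (SD, n = 3 each), 2.02-fold higher in the knockout. H19 rose by 0.996 ± 0.17 (SE) on the log2(FPKM + 1) scale, with a 95% interval of 0.59 to 1.40 (adjusted p = 0.0284, limma). H19 had q = 0.00119 in the authors' deposited table. The call of H19 was kept without wild-type replicate 1 or knockout replicate 2 (adjusted p = 0.0458 and 0.0294, limma) and was lost without each of the other 4 libraries: adjusted p was 0.123 and 0.0756 without wild-type replicates 2 and 3, and 0.0974 and 0.109 without knockout replicates 1 and 3. The fold of the means stayed between 1.89 and 2.26 in these fits. The call was also lost with no filter on low values (adjusted p = 0.160, limma).

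Malat1, the most abundant member, had 1236, 930 and 1144 FPKM in knockout libraries, against 569, 692 and 530 FPKM in wild-type libraries. The lowest knockout library, replicate 2, was above the highest wild-type library, replicate 2. The mean of Malat1 was 1103 ± 157 FPKM in knockout muscle and 597 ± 84.1 FPKM in wild-type muscle (SD, n = 3 each), 1.85-fold higher in the knockout. Malat1 rose by 0.88 ± 0.15 (SE) on the log2 scale, with a 95% interval of 0.53 to 1.24 (adjusted p = 0.0279, limma), and had q = 0.00119 in the authors' deposited table. The call of Malat1 was kept without knockout replicate 2 (adjusted p = 0.0474, limma). It was lost without each of the others, with adjusted p of 0.0761, 0.0906 and 0.0646 without wild-type replicates 1, 2 and 3, and 0.0935 and 0.113 without knockout replicates 1 and 3. The log2 change stayed between 0.80 and 1.002 throughout. With no filter on low values the adjusted p of Malat1 was 0.158 (limma).

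Neat1, whose gene lies beside Malat1, did not pass the test. It had 90.9, 85.3 and 95.5 FPKM in knockout libraries, against 94.7, 98.0 and 91.4 FPKM in wild-type libraries, and the groups overlapped. Its log2 change was -0.06 ± 0.09 (SE), with a 95% interval of -0.27 to 0.15 (adjusted p = 0.750, limma), with q = 0.933 in the authors' deposited table. The interval of Neat1 lies below that of Malat1. Within a library, the ratio of Neat1 to Malat1 does not depend on how that library was scaled. It was 0.0735, 0.0917 and 0.0835 in knockout libraries, against 0.166, 0.142 and 0.172 in wild-type libraries, so all 3 knockout ratios lay below all 3 wild-type ratios. The mean log2 ratio differed by -0.95 (exact permutation p = 0.1, two-sided, adjusted 0.15 over the 3 ratios with a value), and 0.1 is the smallest p that 3 against 3 libraries can give. Neat1 varied little between libraries, so this separation follows from the values of Malat1 and adds no further support.

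**Figure D2:**
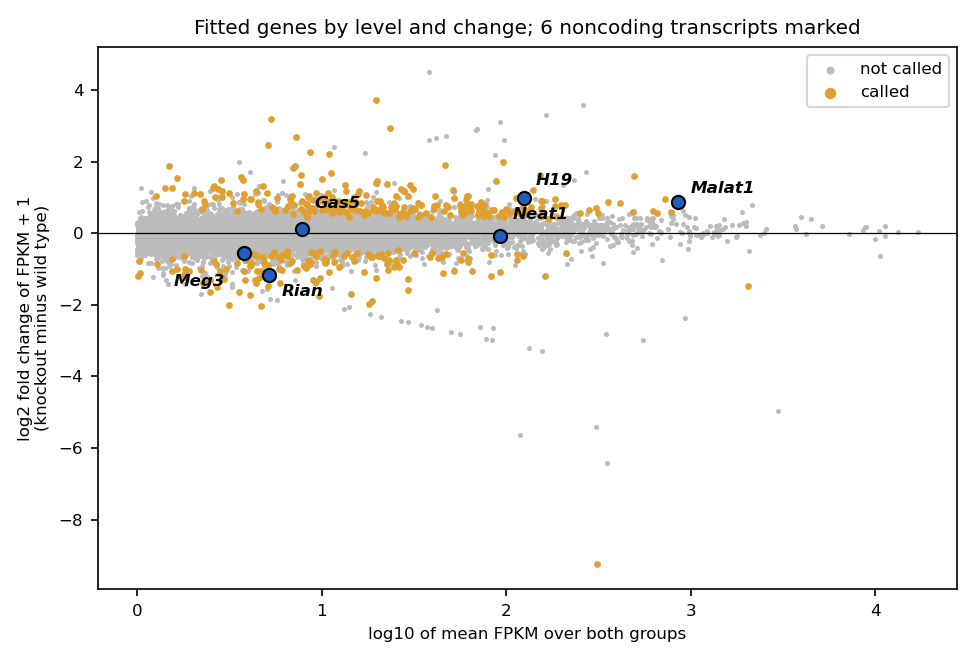
Log2 change of FPKM + 1, knockout minus wild type (vertical), against log10 of the mean FPKM over both groups (horizontal), for the 10501 fitted genes; called genes in orange, the 6 fitted members in blue. Malat1 and H19 sit above 0 among the abundant genes, Neat1 sits at -0.06 at a level like that of H19, and Meg3 and Rian sit below 0 among the low genes.

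Meg3 had 3.07, 2.80 and 2.78 FPKM in knockout libraries, against 5.92, 3.45 and 4.88 FPKM in wild-type libraries. The groups did not overlap, and the 3 knockout values were close together. The means were 2.88 ± 0.163 FPKM in knockout muscle and 4.75 ± 1.24 FPKM in wild-type muscle (SD, n = 3 each), a level 1.65 times as high in wild type. The log2 change of Meg3 was -0.54 ± 0.18 (SE; 95% interval -0.95 to -0.13) and did not pass the test (adjusted p = 0.147, limma; q = 0.133 in the authors' deposited table).

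Rian, the snoRNA host between Meg3 and Mirg, had 3.14, 2.27 and 1.89 FPKM in knockout libraries, against 15.5, 4.32 and 4.07 FPKM in wild-type libraries. All knockout values were below all wild-type values, and wild-type replicate 1 was far above the rest. The means were 2.44 ± 0.643 FPKM in knockout muscle and 7.97 ± 6.55 FPKM in wild-type muscle (SD, n = 3 each), 3.27 times as high in wild type. The log2 change was -1.17 ± 0.44 (SE; 95% interval -2.20 to -0.14; adjusted p = 0.199, limma), while the authors' deposited table gave q = 0.00119. The size of this difference rested on wild-type replicate 1: without it the wild-type mean was 1.72 times the knockout mean and the log2 change -0.61 (adjusted p = 0.152, limma). The ratio of Rian to Meg3 was 1.02, 0.809 and 0.681 in knockout libraries, against 2.62, 1.25 and 0.834 in wild-type libraries. These ratios overlapped, and their mean log2 difference was -0.76 (exact permutation p = 0.2, two-sided, adjusted 0.2), or -0.31 without wild-type replicate 1 (exact permutation p = 0.4).

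Mirg, the microRNA cluster transcript at the far end of the locus, was listed at 0 in knockout replicates 1, 2 and 3, against 0.878, 0.176 and 0.143 FPKM in wild-type replicates 1, 2 and 3. As for Rian, wild-type replicate 1 was the high library. In units of the value in wild-type replicate 3, corrected for depth, the wild-type values were 6, 1 and 1 steps, and a step would have been 0.222, 0.176 and 0.217 FPKM in the knockout libraries. The level thus rests on a few steps, and the knockout libraries, 2 of which were the shallowest, cannot show a level below a step. Mirg had too low a mean to be fitted, the authors' deposited table gave it a p and q of 1, and without the filter its adjusted p was 0.597 (limma). No fold is given against a group listed at 0.

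The ratio of H19 to Meg3, both maternally expressed, was 59.3, 45.7 and 68.1 in knockout libraries, against 16.03, 21.8 and 15.7 in wild-type libraries. Every knockout ratio was above every wild-type ratio, and the mean log2 ratio differed by 1.69 (exact permutation p = 0.1, two-sided, adjusted 0.15). H19 was higher and Meg3 lower in every knockout library, so this separation and its p follow from the values above and add no further support. Unequal change between the genes of a ratio does not show which of them changed.

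**Figure D3:**
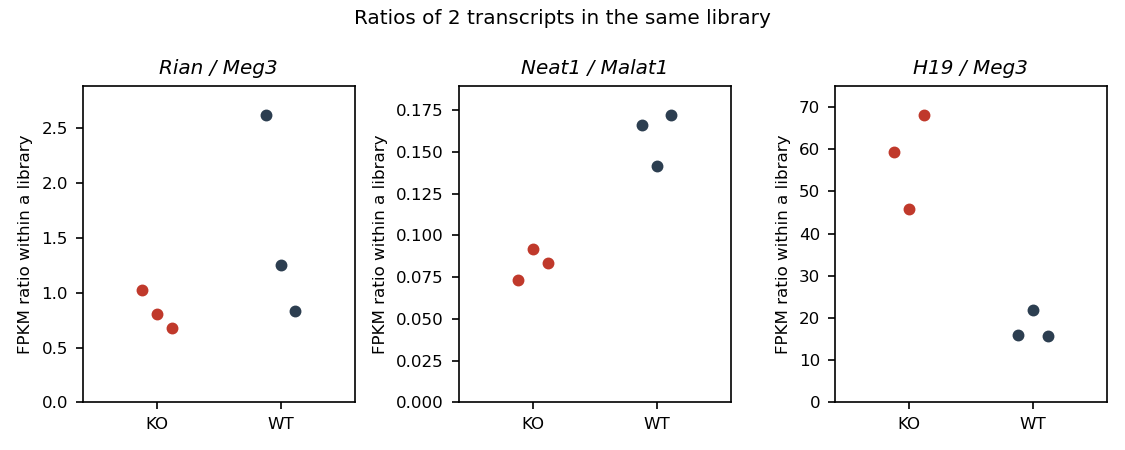
FPKM ratio of 2 transcripts in the same library (vertical axis, linear, starting at 0) for Rian over Meg3, Neat1 over Malat1 and H19 over Meg3, with a point for each of the 3 knockout (KO) and 3 wild-type (WT) libraries. Neat1 over Malat1 is lower and H19 over Meg3 higher in all knockout libraries, while for Rian over Meg3 the highest knockout ratio, 1.02, is above the lowest wild-type ratio, 0.834.

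Gas5 had 10.5, 7.67 and 6.45 FPKM in knockout libraries, against 8.28, 6.53 and 7.38 FPKM in wild-type libraries. Knockout replicate 1 was the highest and knockout replicate 3 the lowest of all 6, so the groups overlapped. The log2 change of Gas5 was 0.11 ± 0.18 (SE; 95% interval -0.30 to 0.53; adjusted p = 0.784, limma; q = 0.736 in the authors' deposited table), and it was -0.06 without knockout replicate 1.

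The members' values can be set beside each other over the 6 libraries, as a description. Pearson's r of log2(FPKM + 1) was 0.89 for Meg3 with Rian, and 0.77 after the group means were removed. Both were highest in wild-type replicate 1, where Rian had 15.5 FPKM. In wild-type replicates 2 and 3 Rian had 4.32 and 4.07 FPKM and Meg3 3.45 and 4.88 FPKM, in the opposite order. The r of this pair without wild-type replicate 1 was not computed. For H19 with Malat1, r was 0.93, and 0.48 after removal of the group means. For Malat1 with Neat1 it was -0.23, and 0.81 after removal, so the sign of r for this pair differed with and without the group means. All 6 points share the libraries' depth and scaling. For the genes that follow, r was not computed after removal of the group means. Taking the highest of 6136 values of r over 6 libraries favours values near the top, so these r do not show shared regulation. Among 6136 other genes with a mean of at least 5 FPKM, the most similar patterns were Uggt1 (r = 0.997) and Gpbp1 (r = 0.995) for H19, Zdhhc3 (r = 0.990) and Sec61g (r = 0.990) for Malat1, Mapre1 (r = 0.974) and Ptk2 (r = 0.973) for Neat1, Cacybp (r = 0.989) and Fyttd1 (r = 0.982) for Meg3, Rnf103 (r = 0.989) and Gfpt1 (r = 0.984) for Rian, and Slc50a1 (r = 0.993) and Tm4sf1 (r = 0.982) for Gas5.

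The protein-coding neighbours of the 2 imprinted loci did not pass the test: of 12 listed, 7 were fitted and 0 were called by limma or by the q-values of the authors' deposited table (1 at an unadjusted p under 0.05, a threshold that 19.7% of all fitted genes passed), with a median log2 change of -0.05. Igf2, the growth factor gene beside H19, had 2.34, 2.29 and 1.24 FPKM in knockout libraries, against 2.25, 2.74 and 2.80 FPKM in wild-type libraries. The groups overlapped, and its log2 change was -0.30 (adjusted p = 0.431, limma). Of the other neighbours, Tnnt3 and Tnni2, fast troponin genes, had changes of 0.04 and -0.16, and Mrpl23, a mitochondrial ribosomal protein gene, -0.05. The coding genes of the Dlk1-Dio3 locus were near the floor: Dlk1 was listed at 0 in all knockout libraries and averaged 0.0770 FPKM in wild type, Rtl1 averaged 0.0729 FPKM in the knockout and 0.117 in wild type, and Dio3 0.0860 FPKM in the knockout and 0.0640 in wild type. The sources used here do not say whether counting used strand, so reads of genes that overlap on opposite strands, such as Rtl1 and its antisense transcript, cannot be told apart.

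Of 74 other imprinted genes, 70 were in the table and 37 fitted: 0 rose and 4 fell by limma, 1 rose and 5 fell by the q-values of the authors' deposited table, 7 had an unadjusted p under 0.05, and the median log2 change was -0.11. The 7 of 37 is near the 19.7% of all fitted genes. Here and in the lists that follow, 2.3% of all fitted genes rose and 1.34% fell by limma. By the q-values of the authors' deposited table, 5.17% were higher and 4.33% lower. The 4 that fell are Snrpn, a spliceosomal protein gene, and Snurf, which shares its transcript, Slc38a4, an amino acid transporter, and Pon3, a lactonase gene. Snrpn had 2.64, 2.45 and 3.53 FPKM in knockout libraries, against 8.20, 10.9 and 8.14 FPKM in wild-type libraries (adjusted p = 0.0128, limma), and Snurf averaged 2.60 ± 0.388 FPKM in the knockout and 5.70 ± 0.547 in wild type (SD, n = 3 each; adjusted p = 0.0196, limma). The counting could have split reads between Snrpn and Snurf, so their values are uncertain one against the other. As they share a transcript, they are not separate cases in the count of 4. Slc38a4 averaged 11.4 ± 2.51 FPKM in the knockout and 28.2 ± 4.78 in wild type, and Pon3 5.23 ± 0.592 FPKM in the knockout and 11.2 ± 2.41 in wild type (SD, n = 3 each; adjusted p = 0.0192 and 0.0263, limma). Snrpn lost its call without wild-type replicate 2 or knockout replicate 1 (adjusted p = 0.0762 and 0.0586, limma). Slc38a4 lost it without wild-type replicates 2 or 3 or knockout replicates 1 or 3, with adjusted p of 0.0909, 0.0514, 0.0694 and 0.0724 (limma), and Pon3 kept it only without wild-type replicate 1 (adjusted p = 0.0443, limma), the others giving 0.0560 to 0.107. Snurf had adjusted p of 0.0548 to 0.0906 without each library in turn. With no filter on low values none of these 4 genes was called, with adjusted p of 0.0734 for Snrpn, 0.0778 for Snurf, 0.119 for Slc38a4 and 0.134 for Pon3 (limma). With a replicate block Slc38a4 kept its call (adjusted p = 0.0494, limma) and Snrpn, Snurf and Pon3 lost theirs. Peg3, Grb10 and Snhg14 were called in the authors' deposited table and not by limma: Peg3 averaged 2.09 FPKM in the knockout and 3.78 in wild type, and Grb10 15.1 FPKM in the knockout and 9.23 in wild type. Snhg14, the long transcript downstream of Snrpn and a member of the snoRNA host list, averaged 1.39 FPKM in the knockout and 4.09 in wild type. With adjusted p of 0.113 and 0.0610 over all libraries, Grb10 passed limma without wild-type replicate 1 (0.0458) and Snhg14 without knockout replicate 3 (0.0489).

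Regulators of imprinting and of the H19 and Meg3 loci were fitted for 20 of 32: 0 were called by limma, 4 had an unadjusted p under 0.05, and 1 rose and 1 fell by the q-values of the authors' deposited table (Tet2 and Mbd3), with a median log2 change of 0.07. The 4 of 20 is again near the 19.7% of all fitted genes. Ctcf, the insulator protein of the H19 control region, averaged 8.64 FPKM in the knockout and 9.80 in wild type (adjusted p = 0.624, limma). The muscle transcription factor Mef2a, linked in mice to expression of the Meg3 locus, averaged 29.3 FPKM in the knockout and 36.5 in wild type, and every knockout library was lower (adjusted p = 0.209, limma). Mef2c and Mef2d had log2 changes of -0.20 and 0.31, also short of the threshold. Igf1r, a reported target of miR-675, averaged 1.83 ± 0.168 FPKM in the knockout and 2.45 ± 0.295 in wild type (SD, n = 3 each), lower in every knockout library, with an adjusted p of 0.301 by limma.

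Genes tied to Malat1, Neat1 and Gas5 showed no call by limma. Of 31 nuclear speckle and Malat1-processing protein genes, 30 were fitted, 0 were called, 8 had an unadjusted p under 0.05 and the median was 0.11, and among 24 fitted paraspeckle genes these counts were 0 and 4 with a median of 0.09. Here and in the lists that follow, the share of all fitted genes with an unadjusted p under 0.05 was 19.7%. The authors' deposited table called 0 speckle genes and 1 paraspeckle gene, Zc3h6. Hnrnpk, an RNA-binding protein of paraspeckles, had the lowest unadjusted p of the 3 paraspeckle genes highest in level, at 79.6 ± 1.32 FPKM in the knockout and 63.1 ± 3.74 in wild type (SD, n = 3 each; adjusted p = 0.0933, limma). Of 24 genes listed as snoRNA hosts, 17 were fitted, with 0 called, 3 at an unadjusted p under 0.05, 1 lower by the authors' deposited table (Snhg14) and a median of -0.01. Rnu12, in the same list though a small nuclear RNA and not a snoRNA host, was 689, 252 and 312 FPKM in knockout libraries. It was 70.0, 126 and 171 FPKM in wild-type libraries, apart but uncalled (adjusted p = 0.0838, limma). Among nonsense-mediated decay factors, 17 were fitted, 0 were called by either rule, 1 had an unadjusted p under 0.05 and the median was 0.07.

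Of 59 other long noncoding RNAs, 28 were fitted and 2 rose by limma, with 0 that fell and a median of 0.05. The authors' deposited table had 3 rises and 1 fall, and 6 had an unadjusted p under 0.05. A330023F24Rik, the transcript in which RefSeq places Mir29b-2 and Mir29c, averaged 13.4 ± 2.73 FPKM in the knockout and 6.70 ± 1.26 in wild type (SD, n = 3 each; log2 change 0.89; adjusted p = 0.0411, limma), and lost its call when each of the 6 libraries was left out, where adjusted p was 0.0541 to 0.155. Srrm4os had 13.4, 8.93 and 8.995 FPKM in knockout libraries, against 0.152, 0.304 and 0.247 FPKM in wild-type libraries (adjusted p = 0.000903, limma), and it kept its call when each of the 6 was left out. Reads of Srrm4os and of Srrm4 on the opposite strand cannot be told apart here. Pvt1 averaged 2.89 FPKM in the knockout and 1.47 in wild type and was called in the authors' deposited table only (adjusted p = 0.0753, limma). The fall was that of Rpph1, the RNA of ribonuclease P, at 307, 808 and 717 FPKM in knockout libraries, against 173, 488 and 3338 FPKM in wild-type libraries, which overlap. Over the 254 fitted rows that RefSeq types as lncRNA, a set added after the values were seen, 11 rose and 1 fell by limma, 15 and 6 by the authors' deposited table, and the median log2 change was 0.04. H19 and Malat1 are among the 11. Of all fitted genes, 2.3% rose and 1.34% fell by limma, and 5.17% were higher and 4.33% lower by the authors' deposited table.

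**Figure D4:**
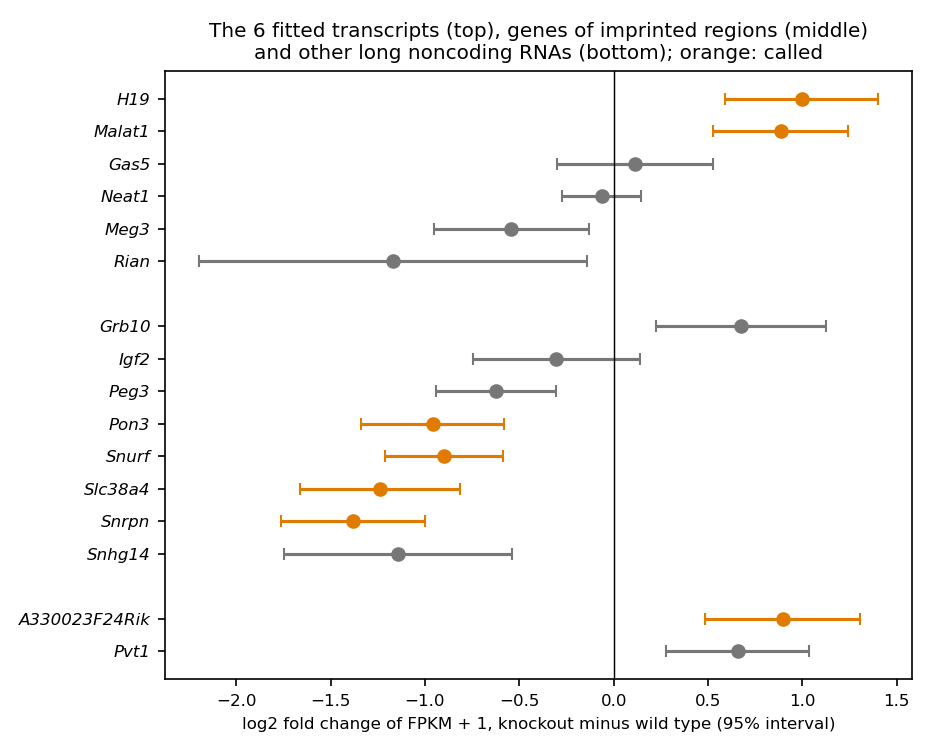
Log2 change of FPKM + 1, knockout minus wild type (horizontal), with 95% intervals (bars) from limma, for the 6 fitted members (top), genes of imprinted regions (middle) and other long noncoding RNAs (bottom); genes called by limma are orange. H19, Malat1 and A330023F24Rik lie above 0, Snrpn, Slc38a4, Pon3 and Snurf below it, and the intervals of Neat1, Gas5 and Igf2 include 0. Uncalled genes whose intervals exclude 0 are Grb10 and Pvt1 above it and Meg3, Rian, Peg3 and Snhg14 below it. The intervals are not adjusted for the number of genes, so an interval that excludes 0 is not a call.

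Other cell types were followed by marker lists, since H19, Malat1 and Meg3 are not particular to fibres. Satellite cell markers (10 of 10 in the table) summed to 52.6 to 62.0 FPKM in knockout libraries and 38.3 to 53.2 FPKM in wild-type libraries. Most of this sum was Sdc4 and Itga7, the most abundant markers of the list. The other 8 markers summed to 8.55 to 10.7 FPKM in knockout libraries and 14.2 to 16.2 FPKM in wild-type libraries, lower in every knockout library. This split was made after the values were seen and by abundance, not by how particular a marker is to satellite cells. It sets aside the markers whose knockout mean was higher. Fibroblast markers summed to 509 to 712 FPKM in knockout and 588 to 865 in wild-type libraries, endothelial markers to 435 to 528 FPKM in knockout and 415 to 595 in wild-type libraries, and macrophage markers to 47.6 to 77.0 FPKM in knockout and 65.8 to 75.2 in wild-type libraries. The groups overlapped in the sum of each whole list, smooth muscle, adipocyte, Schwann cell and erythroid markers included. Several of these sums were also mostly 1 or 2 abundant genes. In the knockout Car3 averaged 1543 FPKM of adipocyte markers that summed to 1330 to 1710, where Adipoq averaged 3.56. Fabp4 averaged 372 FPKM there among endothelial, Rgs5 166 among smooth muscle, and Dcn and Gsn 211 and 188 among fibroblast markers. An overlap of sums thus says little of the other markers of a list. Of the 7 fitted satellite cell markers, 2 were higher and 5 lower in the knockout, and limma called 0, with 4 under an unadjusted p of 0.05. The authors' deposited table called 2 higher (Sdc4 and Itga7) and 1 lower (Cdh15). Sdc4 and Itga7 averaged 26.2 and 22.6 FPKM in the knockout and 15.1 and 15.97 FPKM in wild type (adjusted p = 0.159 and 0.233, limma), and Sdc4 passed without knockout replicate 2 (adjusted p = 0.0399, limma). Pax7, the transcription factor that defines satellite cells, had 0.0592, 0.0940 and 0 FPKM in knockout libraries, against 0.156, 0.141 and 0.383 FPKM in wild-type libraries, and the myogenic factor Myf5 averaged 0.400 FPKM in the knockout and 1.04 in wild type. Both were too low to be fitted. Cdh15, a muscle cadherin, averaged 1.72 FPKM in the knockout and 3.45 in wild type, and Chodl, a lectin-like membrane protein, 2.64 FPKM in the knockout and 4.15 in wild type (adjusted p = 0.156 and 0.179, limma). Pax7, Myf5, Cdh15 and Chodl were lower in every knockout library than in any wild-type library. In all other markers of this list, Sdc4 and Itga7 included, the groups overlapped. Of all fitted genes, 11.9% were lower in every knockout library. Of all markers fitted, Des, the muscle intermediate filament gene, was called: 960 ± 120 FPKM in the knockout and 499 ± 111 in wild type (SD, n = 3 each; adjusted p = 0.0326, limma). Its call was kept without wild-type replicate 3 (adjusted p = 0.0305, limma) and lost without each of the others (0.0803 to 0.144). The part of these markers in the changes of H19 and Malat1 was not tested. Without wild-type replicate 2, the library high in neutrophil markers, the log2 changes were 0.94 for H19 and 0.99 for Malat1.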

How the data were processed

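In all, 6 RNA-seq libraries (3 HDAC3 Knock-out, 3 HDAC3 Wild-type) were used; the peak lists and the 8 ChIP-seq, input and GRO-seq libraries of the 14 samples were not used here. The authors deposited FPKM per gene and library, and the submitters' processing notes name TopHat2, Cuffdiff and the build mm9. Their deposited table adds each gene's p-value and q-value. The sources used here do not give versions, annotation, strandedness or library scaling. FPKM carry no counts, so read depth is unknown, no counting interval is given, and only relative depth was read from the steps of low values.

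Genes with a mean of at least 1 FPKM (10501 of 24354) were fitted as log2(FPKM + 1) with limma 3.58.1 and a mean-variance trend in R 4.3.3, knockout minus wild type, two-sided, with Benjamini-Hochberg adjustment over all of them. A gene was called at an adjusted p under 0.05. The log2(FPKM + 1) scale understates the change of low genes. Folds are ratios of group means of FPKM. Ratios between members were tested with an exact permutation test (scipy 1.17.1), adjusted over the 3 ratios that had a value, since Mirg is listed at 0 in knockout libraries. The script was tested on simulated data. Alternatives were the pseudocount, the filter, library scaling, a replicate block, the deposited q-value and leaving out each library.

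The members and the gene lists were chosen with earlier results of these data known. Named were all members, Hdac3, up to 4 called genes of each list with the lowest adjusted p or, with none called, up to 3 of the highest level, 7 preset genes (Igf2, Dlk1, Rtl1, Dio3, Igf1r, Ctcf and Mef2a), and for each fitted member the 2 genes of most similar pattern. Not every gene so chosen is printed; Peg3, Grb10, Snhg14, Tet2, Mbd3, Zc3h6, Pvt1, Rpph1, Pax7, Myf5 and Cdh15 were named after their values were seen. Sequences are from RefSeq tables on GRCm38.p6.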

Additional observations from a re-analysis of the deposited data

How the results depend on the processing

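Under the other settings the members kept direction and side of the threshold in 62 of 77 cases, while 13 lost a call, 1 gained one and 1 changed sign. Members called numbered 2 with all libraries, 0 without a filter on low values, 0 with a replicate block, 3 by the authors' deposited q-value and 0 to 2 without each library in turn. H19 had a log2 change of 0.996 without the filter (adjusted p = 0.160, limma) and with the block (0.0628), and spanned 0.89 to 1.17 without each library. Malat1 kept 0.88 in both (0.158 and 0.0944) and spanned 0.80 to 1.002. Rian was -1.71 and called by the authors' deposited q-value. Over all genes, 242 rose and 141 fell. These counts were 49 and 49 without the filter, 23 and 13 with the block, 543 and 455 by the authors' deposited q-value, and 13 to 133 and 6 to 75 without each library. The cause was not tested. Uncalled changes that crossed 0 when a library was left out were Gas5 (-0.059 to 0.25), Tnnt3 (-0.015 to 0.11), Mrpl23 (-0.10 to 0.031), Snhg6 (-0.21 to 0.021), Snhg1 (-0.014 to 0.41), Airn (-0.17 to 0.032) and Rpph1 (-1.18 to 0.949), and Srsf5 was -0.018 after quantile normalization. Of 549 values of the other named genes, 486 kept direction and side, 39 lost a call, 14 gained one and 10 changed sign. A filter of 5 FPKM left Meg3 without a value. Same-numbered libraries had deviations correlated at 0.037, 0.0524 and 0.0467, and each knockout library correlated best with the wild-type library of its own number. The labels do not say whether equal numbers share a litter or day. Correlations this small between so few libraries cannot decide it. The distance from HDAC3 peaks was not run, since peaks are on mm9 and the gene positions at hand on GRCm38. Low depth limits Mirg, which rests on a few steps of FPKM.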
